A study of Homo sapiens with 6 samples.

Results

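The 10 genes described here encode proteins that cut, protect or crosslink the extracellular matrix: the metalloproteinase inhibitors TIMP1, TIMP2 and TIMP3, the plasminogen activators PLAU and PLAT, the urokinase receptor PLAUR, the membrane-anchored metalloproteinases MMP14 and MMP15, and the lysyl oxidases LOX and LOXL2. They were taken by name from the annotation of the array, each from the probe set (the group of array probes for 1 transcript) that was brightest on average, and all 10 were found among 19775 annotated genes. RNA came from HepG2, a human hepatoblastoma line with many hepatocyte functions, transfected with an siRNA that targets HNF4A (siHNF4A), a transcription factor of hepatocyte identity, or with a control siRNA (siControl). Each set of cells was then left without TGF-beta (0 h) or given 3 ng/ml of it for 1.5 or 24 h. The 6 arrays were thus siHNF4A at 0, 1.5 and 24 h and siControl at 0, 1.5 and 24 h, with 1 array per combination and no replicate. The design sets the response to TGF-beta with knockdown of HNF4A beside that without it.

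The matrix around cells is degraded by cascades of proteases. Urokinase (PLAU) and the tissue activator (PLAT) turn plasminogen into plasmin, and PLAUR holds urokinase at the cell surface. MMP14 cleaves fibrillar collagen and activates the secreted enzyme MMP2, in a complex that needs TIMP2, while TIMPs at higher amounts block the active sites of metalloproteinases. Lysyl oxidases oxidise lysines of collagen and elastin, so that the fibres become crosslinked. In liver, TGF-beta is known for raising matrix deposition and TIMP1 in fibrosis, chiefly in stellate cells.

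Values are MAS5 signals, scaled intensities on a linear scale. Array medians ran from 12.4 to 13.3, and signals below 12.9, the median of all signals, were set to 12.9 before log2 was taken. None of the 10 genes had a signal under that floor on any array, so all 10 entered the fit over 11921 genes whose mean signal exceeded it. Log2 differences of 24 h or 1.5 h against 0 h are means over both siRNAs, and those of siHNF4A against siControl are means over the 3 times, each with limma's standard error. An adjusted p under 0.05 (Benjamini-Hochberg over all tested genes) counts as passing, and only then is a gene said to have risen or fallen. No 1.5 or 24 h array without TGF-beta was used here, so TGF-beta and time in culture cannot be told apart. In a bulk sample, fewer cells with a transcript and less transcript per cell cannot be told apart either.

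The siControl 0 h array stood apart in one control: a probe set at the 5' end of ribosomal RNA had a signal of 8599.7, where the other 5 arrays had 69.8 to 736.5. Counts of genes that passed at 24 h, at 1.5 h and for siHNF4A are therefore also given without it. Those fits keep only the siHNF4A array at 0 h and so have less to measure the spread with. All 8 hepatoma and hepatocyte markers were above the floor on every array, with signals of 491.8 to 10763.4. The endothelial markers CDH5, VWF, TEK and KDR, the leukocyte marker PTPRC and the fibroblast markers FAP and COL6A3 were at or under the floor on all 6 arrays. Other markers of the same lists were above it on all 6: ACTA2 (271.0 to 416.2), PECAM1 (47.0 to 127.2) and CD14 (13.9 to 100.3). The stellate marker PDGFRB was at or under it on 1 array. PDGFRA, DCN, LUM and THY1 of the fibroblast and stellate list were above it on some arrays only, as were CSF1R and HBB of the blood list. All of these but HBB had a mean signal not above it. HNF4A is not analysed here, and no check of the knockdown is given.

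At 24 h, 7 of the 10 genes had risen and none had fallen. The 7 were TIMP1, TIMP2, PLAU, PLAT, PLAUR, LOX and LOXL2, with mean increases of 1.72-fold to 4.29-fold. Over all tested genes 7.22% rose and 7.82% fell in the same comparison. The median log2 difference of the 10 genes was 1.01, and that of all tested genes was -0.0329. TIMP3, MMP14 and MMP15 missed the threshold. Leaving out the siControl 0 h array gave 7 as well, as did comparing 24 h with 1.5 h in place of 0 h. The count was 4 when all probe sets of a gene were averaged, 2 (TIMP1 and LOX) without limma's intensity trend and 0 with dim genes kept in.

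At 24 h 1 endothelial marker and 1 of 2 tested blood cell markers had also risen. PECAM1 rose by 1.01 ± 0.27 and CD14 by 1.39 ± 0.35. HBB, the other tested marker of the blood list, had -0.52 ± 0.34 and did not pass (limma adjusted p = 0.339). The summed signal of the 5 endothelial markers was 128.6 (siHNF4A) and 147.0 (siControl) at 24 h, against 84.3 and 62.9 at 0 h. That of the 4 blood and macrophage markers found was 78.1 and 140.0 at 24 h, against 68.9 in both at 0 h, and that of the 8 fibroblast and stellate markers was 382.2 and 466.4, against 382.1 and 449.3. CDH5, VWF, TEK, KDR, PTPRC, FAP and COL6A3 were at or under the floor at 24 h too, while ACTA2, PECAM1, CD14, PDGFRB and HBB were above it. The part of PECAM1 and CD14 in the results was not tested.

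TIMP1, a secreted inhibitor of most matrix metalloproteinases, had the largest 24 h difference of the 10. Its signals at 0, 1.5 and 24 h were 798.9, 811.1 and 5154.5 in siHNF4A cells and 877.9, 837.1 and 2508.5 in siControl cells. The 4 arrays before 24 h lay close together, and both 24 h arrays were far above them. TIMP1 rose by 2.10 ± 0.20 at 24 h (limma adjusted p = 1.52e-05), 6.45-fold in siHNF4A and 2.86-fold in siControl cells. It had 1 probe set.

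TIMP2, which both inhibits metalloproteinases and takes part in the activation of MMP2 by MMP14, read 628.9, 627.4 and 1217.0 in siHNF4A cells and 418.1, 514.2 and 639.7 in siControl cells at the 3 times. It was higher in siHNF4A at each time, and the siControl 24 h signal was only slightly above the siHNF4A signals at 0 and 1.5 h. TIMP2 rose by 0.78 ± 0.16 at 24 h (adjusted p = 0.00357). Its other probe sets gave 0.48 and 0.50, and neither the mean of its 3 probe sets (0.59) nor the second of these alone (0.50) passed.

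TIMP3, the TIMP that binds to the matrix itself, stayed within a 1.29-fold range. Its signals were 408.4, 319.5 and 317.0 in siHNF4A cells and 348.3, 400.1 and 358.6 in siControl cells. The 24 h difference was -0.16 ± 0.17 (adjusted p = 0.585), and its 3 other probe sets gave 0.03, 0.13 and -0.01.

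**Figure D1:**
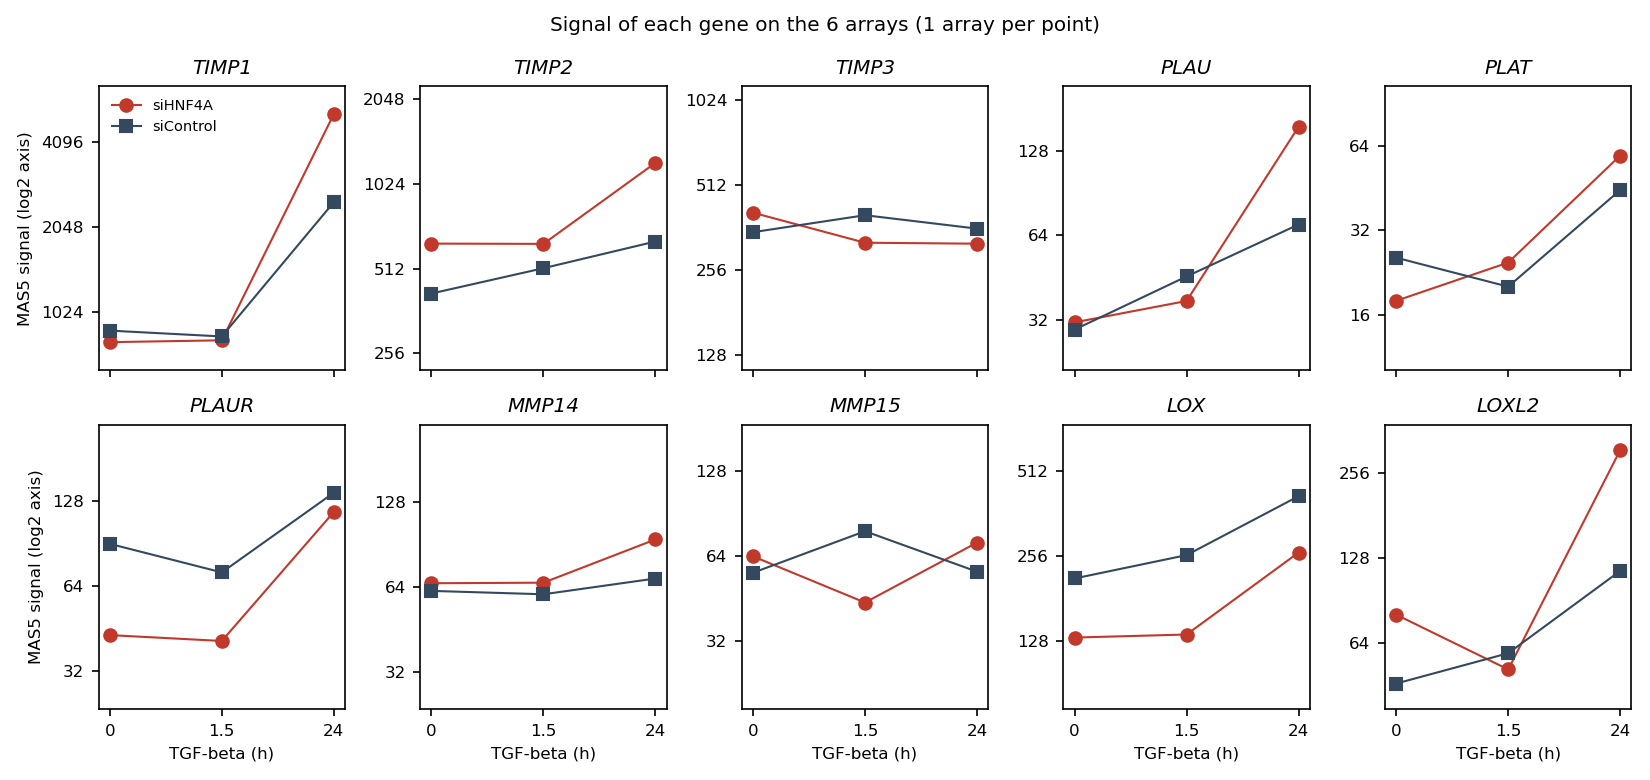
MAS5 signal (log2 axis, the same fold range in every panel) of the 10 genes against time with TGF-beta (0, 1.5 and 24 h, spaced evenly) in siHNF4A (circles) and siControl (squares) cells, 1 array per point. Both 24 h points lie above the 4 earlier ones for 8 genes, all but TIMP3 and MMP15.

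Among the plasminogen activators, PLAU, the urokinase, read 31.4, 37.4 and 155.4 in siHNF4A cells and 29.6, 45.7 and 69.9 in siControl cells. Both 24 h arrays were above the 4 others, the siHNF4A one by far. PLAU rose by 1.77 ± 0.33 (adjusted p = 0.00215), and its other probe set gave 1.57, with 1.96 in siHNF4A and 1.17 in siControl cells.

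PLAT, the tissue-type activator best known for dissolving clots, had low signals: 18, 24.6 and 59.0 in siHNF4A cells and 25.6, 20.2 and 44.5 in siControl cells. It rose by 1.26 ± 0.33 (adjusted p = 0.0185), and the 24 h arrays did not overlap with the earlier ones. It had 1 probe set.

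PLAUR, the receptor that focuses urokinase on the cell surface, read 42.8, 40.8 and 117.1 in siHNF4A cells and 90.3, 71.5 and 137.1 in siControl cells. At 0 and 1.5 h siHNF4A cells were at 0.474 and 0.571 of the siControl signal, and at 24 h at 0.854 of it. PLAUR rose by 1.03 ± 0.26 at 24 h (adjusted p = 0.0156). The other probe sets gave 1.81 and 0.69, the second of these with 2 arrays at or under the floor and with opposite signs in the arms (1.51 in siHNF4A, -0.14 in siControl). On that probe set alone (0.69) or with the mean of the 3 (1.17) PLAUR did not pass.

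The membrane-anchored metalloproteinases did not pass. MMP14, the collagenase at the cell surface, read 66.0, 66.3 and 94.4 in siHNF4A cells and 62.0, 60.3 and 68.6 in siControl cells. Both 24 h signals were above the earlier ones, but the difference of 0.33 ± 0.25 was close to its error (adjusted p = 0.422). Its 3 other probe sets, each with at least 1 array at or under the floor, gave 0.42 to 1.00. MMP15, a relative of MMP14 that also sits in the cell membrane, read 63.9, 43.8 and 71.5 in siHNF4A cells and 55.9, 78.5 and 56.4 in siControl cells, with no order by time. Its 24 h difference was 0.09 ± 0.30 (adjusted p = 0.889), and its other probe set was under the floor on all arrays.

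Both lysyl oxidases rose at 24 h. LOX read 131.4, 134.7 and 263.3 in siHNF4A cells and 213.1, 257.9 and 417.5 in siControl cells. The siHNF4A cells lay below the siControl cells at each time, and the increase was about the same in both, at 1.00 and 0.97 on the log2 scale. LOX rose by 0.99 ± 0.18 (adjusted p = 0.00169), and its other probe sets gave 0.87 and 1.00. LOXL2, which also crosslinks the collagen of basement membranes, read 80.6, 51.5 and 309.4 in siHNF4A cells and 45.9, 58.8 and 115.3 in siControl cells. It rose by 1.63 ± 0.31 (adjusted p = 0.00266). Its 3 other probe sets were under the floor on all 6 arrays, and with the mean over the 4 the difference of 0.41 did not pass.

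Of 12 other probe sets of these genes with a mean above the floor, 7 belonged to genes that rose at 24 h, and all 7 were also higher at 24 h on average over the siRNAs. For the 10 genes as a group, both 24 h arrays exceeded the 4 earlier arrays in 8, against 15.7% of all tested genes.

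At 1.5 h none of the 10 genes passed, and none had an unadjusted p under 0.05. In limma 0.0839% of all tested genes rose and 0.0168% fell at that time, and 364 of 11921 had an unadjusted p under 0.05. The differences ran from -0.20 for PLAUR to 0.44 ± 0.33 for PLAU, with a median of -0.0201. PLAU was the gene with the largest value, 1.19-fold higher in siHNF4A and 1.54-fold higher in siControl cells. Without the siControl 0 h array none passed either. No gene of the 10 differed by 2-fold between the 1.5 h and the 0 h array of either siRNA.

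The upstream DNA of the genes that rose at 24 h is shown because these genes moved together, and to set beside it the motifs of factors that act in TGF-beta responses. RefSeq windows (GRCh38.p14) were matched for 7 of the 10 genes, and those for TIMP1, PLAU, PLAUR and LOX are given as the 250 bases before the start of transcription, 5′ to 3′. PLAU has 2 entries and LOX has 3. For PLAU the second is given, since the first holds none of the motifs below, and for LOX the first, which alone of its 3 holds a GC box. Capitals mark matches to the AP-1 motif TGANTCA, the Smad box CAGAC and the GC box GGGCGG, each searched on both strands, with no overlap between matches in these 4 windows.
TIMP1, chrX:47582186-47582435, + strand: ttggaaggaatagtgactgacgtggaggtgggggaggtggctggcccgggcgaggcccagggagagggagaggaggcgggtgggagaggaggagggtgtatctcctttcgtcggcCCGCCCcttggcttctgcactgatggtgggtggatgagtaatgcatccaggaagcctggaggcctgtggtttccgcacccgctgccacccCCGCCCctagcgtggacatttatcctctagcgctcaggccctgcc
PLAU, chr10:73910882-73911131, + strand: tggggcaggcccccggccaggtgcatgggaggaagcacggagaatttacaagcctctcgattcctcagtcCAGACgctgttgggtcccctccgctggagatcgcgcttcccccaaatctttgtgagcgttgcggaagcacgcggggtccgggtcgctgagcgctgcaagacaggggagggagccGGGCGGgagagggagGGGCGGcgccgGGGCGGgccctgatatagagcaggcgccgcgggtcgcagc
PLAUR, chr19:43670170-43670419, - strand: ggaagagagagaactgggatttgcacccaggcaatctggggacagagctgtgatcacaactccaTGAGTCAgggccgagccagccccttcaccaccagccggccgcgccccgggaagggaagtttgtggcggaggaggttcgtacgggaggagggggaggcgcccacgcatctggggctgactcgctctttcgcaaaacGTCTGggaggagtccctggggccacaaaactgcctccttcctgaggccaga
LOX, chr5:122078260-122078509, - strand: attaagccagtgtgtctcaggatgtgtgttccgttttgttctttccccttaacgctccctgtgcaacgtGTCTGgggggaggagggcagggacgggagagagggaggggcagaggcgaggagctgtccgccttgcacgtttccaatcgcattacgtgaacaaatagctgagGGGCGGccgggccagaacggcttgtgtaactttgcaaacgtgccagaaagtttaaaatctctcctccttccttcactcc

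The PLAUR window holds the AP-1 letters as TGAGTCA, from 186 to 180 bases before the start, and 6.6% of 35116 RefSeq windows of that length hold them. The Smad box, present in 38.0% of windows, is in those of PLAUR, PLAU and LOX. The GC box, in 42.6% of windows, occurs 3 times in that of PLAU, 2 times in that of TIMP1 and 1 time in that of LOX. The PLAU window was picked for holding motifs, and that of LOX for its GC box. The PLAU matches and the LOX GC box therefore cannot be set against these shares. Of the genes that did not pass at 24 h, TIMP3 and MMP15 have both the Smad box and the GC box, and MMP14 has the GC box. A match is a description of the letters and not of a bound site.

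The arms were compared at 24 h to ask whether the response depends on the siRNA. On the brightest probe sets the 24 h difference was larger in siHNF4A than in siControl cells in 9 of the 10 genes, all but TIMP3. These include all 7 that rose. The direction depended on the probe set for TIMP2 (others 0.21 against 0.79 and 0.57 against 0.39). The same held for MMP14 (others 0.59 against 1.03 and 0.37 against 0.47, but 1.04 against 0.96). For LOX the others were smaller in siHNF4A (0.74 and 0.99, against 1.00 in siControl for both). The other probe sets of PLAU and PLAUR kept the direction. Among all tested genes it was larger in siHNF4A in 47.4%, and among the 861 genes that rose at 24 h in 66.8%. At least a 2-fold increase between single arrays was seen for 6 genes in siHNF4A (TIMP1, PLAU, PLAUR, PLAT, LOX and LOXL2), where 4.5% of all tested genes were that much higher. In siControl cells it was seen for 3 (TIMP1, PLAU and LOXL2), against 3.11% of all tested genes. PLAU was 4.95-fold higher at 24 h in siHNF4A and 2.36-fold in siControl cells, and LOXL2 was 3.84-fold and 2.51-fold higher. The increase was 3.28-fold and 1.74-fold for PLAT, and 2.74-fold and 1.52-fold for PLAUR.

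**Figure D2:**
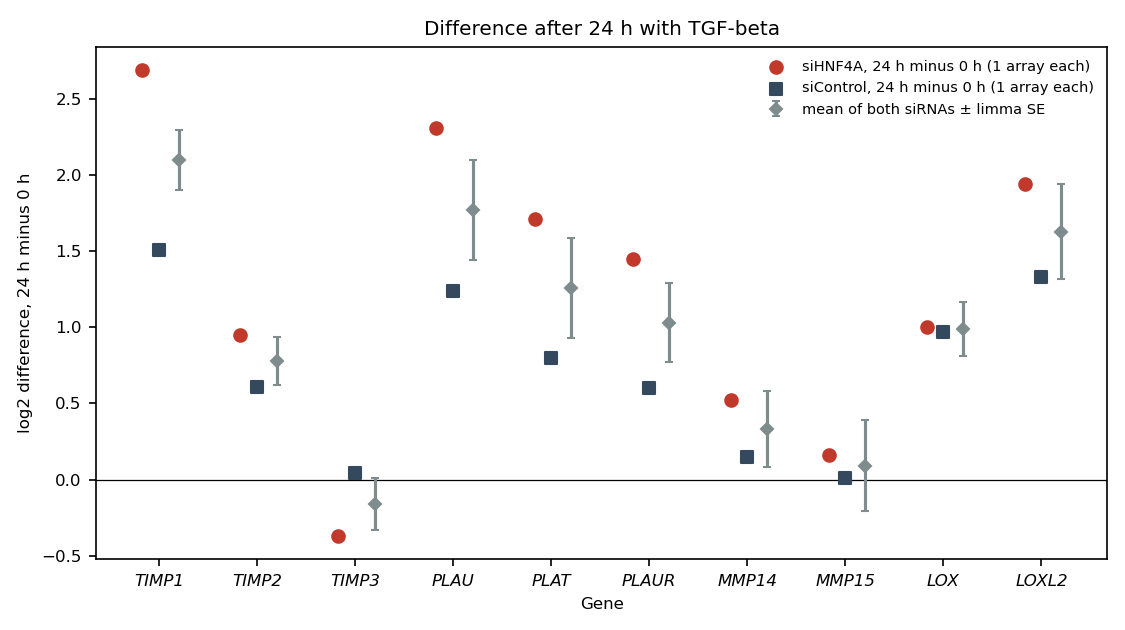
Log2 difference of 24 h minus 0 h for each of the 10 genes in siHNF4A cells (circles) and siControl cells (squares), 1 array at each time, and the mean of both with limma's standard error (diamonds). The circle lies above the square for all but TIMP3, from 2.69 against 1.51 for TIMP1 to 1.00 against 0.97 for LOX.

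A further term measured the siRNA difference at 24 h minus the average of those at 0 and 1.5 h, and for it none of the 10 genes passed. In limma 0% of all tested genes passed in either direction, and 541 had an unadjusted p under 0.05, TIMP1, PLAU and LOXL2 of the 10 among them. The term was 1.13 ± 0.21 for TIMP1 (adjusted p = 0.453), 1.25 ± 0.46 for PLAU and 1.11 ± 0.49 for LOXL2 (adjusted p = 0.999 for both). With a pseudocount in place of the floor TIMP1 had 1.12 and passed (adjusted p = 0.0179), as 1 of 24 genes. This fit has 1 residual degree of freedom and rests on limma's prior for the spread.

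The comparison of siRNAs over all 3 times asked how these genes differ when HNF4A is targeted. TIMP2 rose and LOX fell in siHNF4A cells, 1 gene in each direction, and the other 8 did not pass. Over all tested genes 3.9% rose and 4.16% fell. The median difference of the 10 genes was 0.145, against -0.0388 for all tested genes. Without the siControl 0 h array 3 genes passed, TIMP1 being added at 0.50. There the siRNA difference rests on the 1.5 and 24 h pairs, which for TIMP1 were -0.05 and 1.04. That call thus joins unlike differences and leans on limma's prior for the spread. Without the trend, without the filter or without the 24 h pair of arrays the count was 0, and it was 1 when probe sets were averaged. The monocyte marker CD14 fell by 1.18 ± 0.29 with siHNF4A, and its part in these results was not tested.

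TIMP2 was higher by 0.60 ± 0.13 in siHNF4A than in siControl cells (adjusted p = 0.00866), and higher at 3 of 3 times, 1.5-fold at 0 h, 1.22-fold at 1.5 h and 1.9-fold at 24 h. Its other probe sets gave 0.20 and 0.61, of which the first was lower in siHNF4A at 1.5 h. LOX fell by 0.77 ± 0.14 (adjusted p = 0.00424), at 0.617, 0.522 and 0.631 of the siControl signal at the 3 times. Its other probe sets gave -1.01 and -0.37 and were also lower at 3 of 3 times. Without the 24 h pair of arrays neither TIMP2 (0.44, adjusted p = 0.221) nor LOX (-0.82, adjusted p = 0.0807) passed, and with the mean of its probe sets TIMP2 (0.47) did not.

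PLAUR had the next largest difference in the lower direction, -0.70 ± 0.21, and lay below siControl at 3 of 3 times, but did not pass (adjusted p = 0.0567). At 0 h it was the 1 gene of the 10 that was lower by at least 2-fold between single arrays, where 1.63% of all tested genes were. Its other probe sets gave -1.25 and -0.63. PLAUR passed when signals were floored at their 60th percentile (adjusted p = 0.0418), but had -0.13 (adjusted p = 0.654) with a floor at the 75th and -0.52 (adjusted p = 0.325) without the siControl 0 h array. LOXL2 had 0.68 ± 0.25 (adjusted p = 0.122), with 0.81 at 0 h, -0.19 at 1.5 h and 1.42 at 24 h. LOXL2 passed without the 1.5 h pair, at 1.12 (adjusted p = 0.0174), but had 0.31 (adjusted p = 0.739) without the 24 h pair and 0.17 (adjusted p = 0.595) with its probe sets averaged.

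At 24 h alone TIMP1, PLAU and LOXL2 were at least 2-fold higher in siHNF4A than in siControl cells, at 2.05-fold, 2.22-fold and 2.68-fold, against 2.23% of all tested genes. TIMP1 and PLAU did not show this before 24 h: siHNF4A cells had 0.91 and 0.969 of the siControl signal of TIMP1, and 1.06 and 0.818 of that of PLAU, at 0 and 1.5 h. The averages over the 3 times, 0.29 ± 0.17 for TIMP1 and 0.32 ± 0.27 for PLAU, therefore join unlike differences. PLAT, TIMP3, MMP14 and MMP15 had averages from -0.10 to 0.23, none of which passed.

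**Figure D3:**
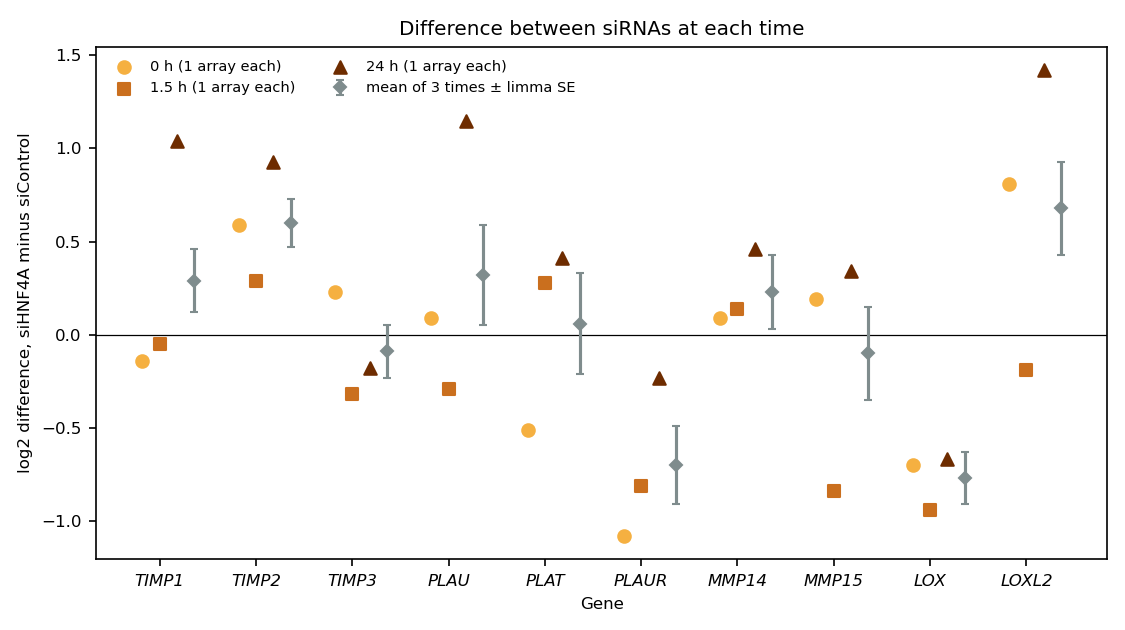
Log2 difference of siHNF4A minus siControl for each of the 10 genes at 0 h (circles), 1.5 h (squares) and 24 h (triangles), 1 array each, and the mean of the 3 times with limma's standard error (diamonds). The points of LOX and PLAUR are all below 0 and those of TIMP2 and MMP14 all above. The 24 h point is the highest of the 3 for every gene but TIMP3, and lies from 1.04 to 1.42 for TIMP1, PLAU and LOXL2.

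Further genes of matrix proteolysis and crosslinking were read from 9 lists of 98 genes in all, 61 of which had a mean signal above the floor. At 24 h 24 of the 61 rose, 1 fell and 36 did not pass, where 7.22% of all tested genes rose and 7.82% fell. The median log2 difference of the 61 was 0.30, against -0.0329 for all tested genes. Averaging probe sets gave 11 that rose, leaving out the trend 9 and leaving out the filter 0, while leaving out the siControl 0 h array gave 19 that rose and 2 that fell. At 1.5 h none passed, with or without that array. With siHNF4A 1 of the 61 rose and 2 fell, against 3.9% and 4.16% of all tested genes. Leaving out the same array gave 3 in each direction, and none passed with probe sets averaged, without the trend or without the filter.

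Of 15 listed protease inhibitors 10 were tested, and 7 of these rose at 24 h, against 7.22% of all tested genes. TIMP4 and TFPI2 had a mean signal above the floor only through their 24 h arrays. Their place among the tested genes and their rise thus rest on the same signals. SPINT1, a surface inhibitor of the protease that activates hepatocyte growth factor, read 71.3 (siHNF4A) and 60.4 (siControl) at 24 h, against 10.3 and 5.3 at 0 h, and rose by at least 2.35 ± 0.32. TFPI2, a matrix-bound inhibitor of plasmin, read 102.6 (siHNF4A) and 20.8 (siControl) at 24 h, against 20.2 and 1.4 at 0 h. It rose by at least 1.52 ± 0.45, with 2.35 in siHNF4A and 0.69 in siControl cells. Its siControl 24 h signal was thus close to the siHNF4A 0 h signal. SERPINE2, which inhibits thrombin and urokinase, rose by 1.41 ± 0.12, and SERPINI1, which inhibits PLAT in the nervous system, by 1.04 ± 0.17. The fourth TIMP, TIMP4, read 42.3 (siHNF4A) and 24.2 (siControl) at 24 h and was under the floor on the 4 earlier arrays, so it rose by at least 1.31 ± 0.36. The plasmin inhibitor SERPINF2 (-0.60 ± 0.23) and the membrane-bound metalloproteinase inhibitor RECK (-0.55 ± 0.24) did not pass.

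Several crosslinking genes rose as well, where 7.22% of all tested genes did. Both other lysyl oxidases above the floor rose at 24 h, LOXL4 by 1.85 ± 0.17 and LOXL3 by 1.13 ± 0.34. Of 3 lysyl oxidase substrates tested, the collagens COL1A1 (2.62 ± 0.21) and COL4A2 (1.31 ± 0.30) rose. Among 8 partners in collagen modification 5 rose, with TGM2, a transglutaminase that crosslinks proteins by another chemistry, at 1.83 ± 0.26. The collagen lysyl hydroxylase PLOD2, which prepares the lysines used in crosslinks, rose by 1.21 ± 0.12.

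Among proteases the picture was mixed, and the counts below stand beside 7.22% of all tested genes that rose at 24 h. None of 6 other metalloproteinases of the MMP family passed at 24 h. MMP2, the gelatinase that MMP14 activates, read 209.0 on the siHNF4A 24 h array and 31.5 to 40.6 on the other 5 arrays, so that 1 array sets its difference of 1.22 ± 0.45 (adjusted p = 0.0829). Of 8 ADAM and ADAMTS genes 4 rose, ADAM19 by 1.82 ± 0.24. Of 10 cathepsins and surface proteases 2 rose, the lysosomal cathepsins CTSH (1.02 ± 0.16) and CTSB (0.62 ± 0.12). FURIN, the convertase that activates MMP14 by cleavage, rose by 0.70 ± 0.22, as 1 of 7 processing genes.

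In the plasminogen list, S100A10, a subunit of a surface complex that binds plasminogen, rose by 0.51 ± 0.11 at 24 h, and the plasminogen receptor PLGRKT fell by 0.75 ± 0.21. With siHNF4A, S100A10 (-0.40 ± 0.09) and its partner ANXA2 (-0.42 ± 0.11) fell, and the sheddase ADAM9 rose by 0.50 ± 0.09.

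**Figure D4:**
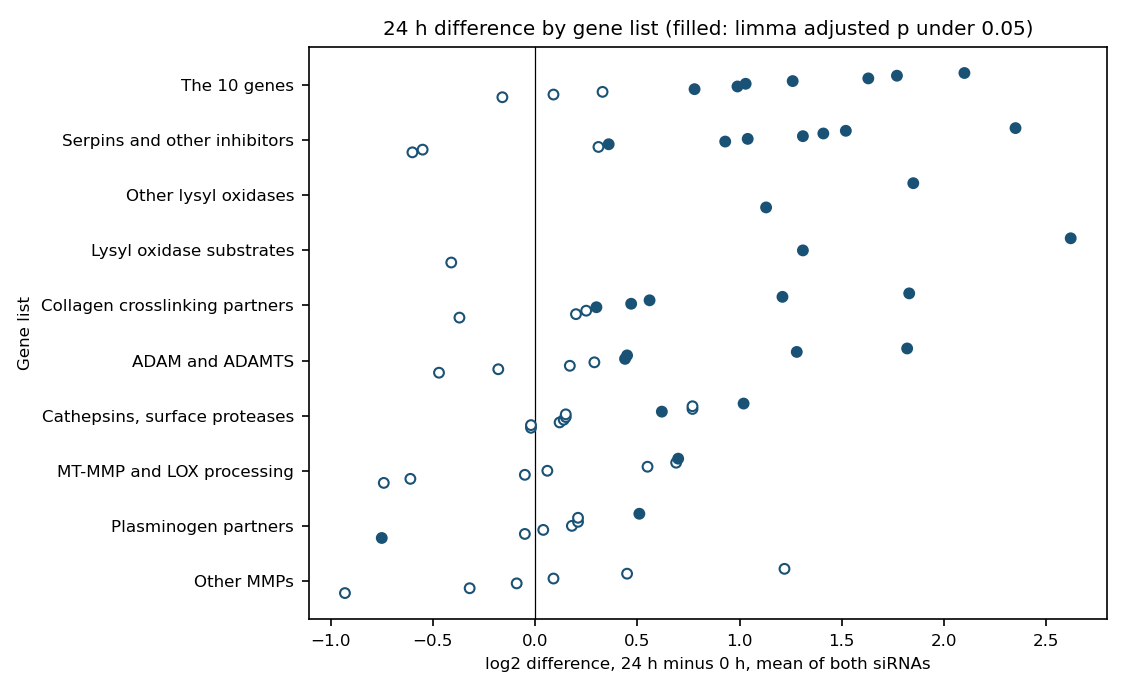
Log2 difference of 24 h minus 0 h, mean of both siRNAs, for each tested gene of the 10 genes and of the 9 other lists (1 point per gene; filled points passed limma's test). Filled points lie to the right of 0 in 8 of the 9 lists, the exception being the other MMPs, and 1 filled point, PLGRKT, lies to the left.

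The likeness of expression over the 6 arrays was measured as Pearson's r of floored log2 signals, among 1644 genes that varied with an SD of at least 0.5. For TIMP1 the closest genes were LIPH (0.999), TIMP4 (0.997) and SMYD3 (0.996), and for PLAU they were ABLIM3 (0.995), EGR3 (0.992) and SPSB1 (0.991). For TIMP2 they were RASD1 (0.993), MAP1B (0.992) and CCND2 (0.991), and for LOXL2 TPM4 (0.989), GABARAPL1 (0.985) and SPOCK1 (0.983). For PLAT they were SV2A (0.991), KLF5 (0.991) and RFC5 (0.988). ZNF827 was among the 3 closest genes of both LOX (0.988) and PLAUR (0.971), the genes that were lower in siHNF4A at 3 of 3 times. LOX was closest to IFITM1 (0.992), and then to APOA4 (0.984) after ZNF827, and PLAUR to ABCA5 (0.983), with ZBTB46 (0.963) after ZNF827. TIMP4 was set to the floor on the 4 arrays before 24 h, so its likeness to TIMP1 comes from the rise at 24 h. All these values rest on the same 6 arrays and describe them only.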

How the data were processed

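Biotin-labelled cRNA made from HepG2 total RNA was measured on 6 Affymetrix arrays, per the labels. The authors deposited linear intensities from MAS5 5.0 and GCOS, per the submitters' processing notes. With 2% of values trimmed at both ends, each array averages 100. Precision is limited by the number of arrays. Of 54675 probe sets 41097 had 1 gene symbol in the platform annotation, 1801 had several and were not named, and no symbol needed an update.

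Signals were used as deposited, floored at 12.9 and taken to log2. limma 3.58.1 (R 4.3.3; lmFit, then eBayes with an intensity trend) was fitted over 11921 genes, with siRNA and time as terms, 2 residual and 12.6 prior degrees of freedom. A second fit added the siRNA effect at 24 h (1 residual, 8.4 prior). With no replicates the residual is the disagreement between times or siRNAs, and the labels do not say whether arrays of an siRNA share a transfection. Figures were drawn with matplotlib 3.10.9 in Python 3.11.15.

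The 10 genes, the lists and the alternatives (scalings, floors, a pseudocount, probe set choices, the filter, the trend and arrays left out) were chosen with earlier results of these data known. Of the listed genes, up to 4 per direction with the largest differences were named by rule, and others with their values already known. The 3 genes closest to each gene that passed were named by Pearson's r. Promoter sequences are RefSeq's (GRCh38.p14).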

Additional observations from a re-analysis of the deposited data

Results flagged for a closer look

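The siRNA arms had opposite signs at 1.5 h against 0 h in several of the 10 genes, and at 24 h in TIMP3. How many of all tested genes had opposite signs was not counted, so their number is not a result about these genes. The siControl differences use the 0 h array that stood apart in one control. These rest on 1 array each, and the difference between the arms was not tested at 1.5 h. For MMP15 the 1.5 h log2 difference was -0.54 in siHNF4A and 0.49 in siControl cells, a gap of -1.03 between the arms. For LOXL2 it was -0.65 and 0.36, a gap of -1.0. PLAT had 0.45 in siHNF4A and -0.34 in siControl cells, a gap of 0.79, at signals of 18 to 25.6. TIMP3 had -0.35 and 0.20 (gap -0.55) at 1.5 h, and -0.37 and 0.04 (gap -0.41) at 24 h. For TIMP2 the gap was -0.30, for TIMP1 0.09 and for MMP14 0.05, with at least 1 arm within 0.07 of 0 in each.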

How the results depend on the processing

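Of the 10 genes, 7 passed at 24 h, 0 at 1.5 h and 2 for siHNF4A. At 24 h the count was 4 when all probe sets of a gene were averaged, 2 without limma's trend (TIMP1 and LOX), 1 of the 4 genes left without _x_at and _s_at probe sets, and 0 without the filter on dim genes, in which genes floored on every array have no variance (limma, 6 with an unadjusted p under 0.05, and 1 of 19775 genes passing). For siHNF4A it was 1 with the mean of probe sets, 1 of 4 without _x_at and _s_at sets, 0 without the filter (2 unadjusted), 0 without the trend (3 unadjusted) and 0 without the 24 h pair. The difference between arms at 24 h gave 0, and 1 (TIMP1) with a pseudocount. Differences of at least 2-fold between single arrays numbered 13 over 7 comparisons, and 6 when the 75th percentile was the floor, which 6 genes exceeded. The 24 of 61 listed genes that rose at 24 h were 11 of 56 with the mean of probe sets, 9 without the trend and 0 of 95 without the filter. Apart from these constructions the causes were not tested.

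Of 450 differences of single genes under an alternative, 404 kept direction and side of the threshold, 24 lost and 5 gained a call, and 17 changed sign, none with a call on either side. At 1.5 h these were MMP14 (0.0276) and MMP15 (0.0168) with quantile normalization, PLAT (-0.0287) at a 60th percentile floor, and TIMP2 with the mean of probe sets (-0.0057) and without _x_at and _s_at sets (-0.12). Without the siControl 0 h array they were TIMP1 (0.29), PLAUR (0.0764) and MMP14 (0.0875) at 1.5 h and MMP15 (-0.13) at 24 h. For siHNF4A they were TIMP3 (0.0259), PLAT (-0.0506) and MMP15 (0.27) without the 1.5 h pair, and TIMP1 (-0.0908), PLAU (-0.10) and PLAT (-0.11) without the 24 h pair. For the arms they were PLAUR (-0.145) at a 75th percentile floor and TIMP2 (-0.0378) without _x_at and _s_at sets.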
